A study of Bos taurus with 30 samples.

Results

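This report concerns 10 cytokine and chemokine genes of the bovine endometrium, IL6, LIF, IL1A, IL1B, CXCL8, CXCL12, CCL2, CCL20, CSF1 and CXCL10, of 27607 genes counted in all. They were chosen by gene name, as secreted signals of the uterine lining, and each name matched 1 gene identifier in the count tables. Cytokines such as IL6, LIF and the interleukin-1 pair signal through receptors on neighbouring cells and, in the endometrium, are known for their part in inflammation and in the dialogue between the uterus and the early embryo. Chemokines are small secreted proteins that attract leukocytes along a gradient, and many of them, like IL6, are known targets of the transcription factor NF-kB. CSF1 is the growth and survival factor of macrophages.

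The cells were primary epithelial and stromal cells (Bos taurus) from the uteri of nonpregnant cows at about Days 4 to 7 of the cycle, kept for 72 h under flow in a microfluidic device with epithelial cells in the upper and stromal cells in the lower chamber. In the glucose experiment, the medium held 5 mM or 50 mM glucose, and RNA of 12 libraries was sequenced. In the insulin experiment, the medium held 5 mM glucose with vehicle (acetic acid in PBS), 1 ng/mL or 10 ng/mL insulin, and 18 libraries were sequenced. Each of the 10 groups of cell type and treatment held 3 replicates, called biological by the submitters, so p-values measure the spread among these 3. The stromal cells were a stromal-enriched fraction and not a sorted one, and the chamber holds neither a vascular nor an immune compartment of its own.

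Levels are given as CPM, the count of a gene scaled to the counted reads of its library. The glucose libraries held 13493503 to 16647701 counted reads and the insulin libraries 8826470 to 13214728. A gene was called where edgeR's quasi-likelihood test, with the replicate number as a block, gave a Benjamini-Hochberg adjusted p under 0.05 over all genes tested and a log2 fold change beyond 0.1. The labels do not say whether a replicate number marks the same cow or device run in both cell types. Since the measurement is of bulk RNA, fewer cells of a type and less RNA per cell cannot be told apart.

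Both cell fractions carried their defining markers. The 22 epithelial marker genes summed to far less in most stromal libraries than in epithelial ones, but 1 stromal library stood apart. In stromal replicate 3 at 50 mM glucose they reached 60.1% of the epithelial level, against 15.5% and 10.8% in the other 50 mM stromal libraries, 0.831% to 5.76% at 5 mM, and 0.238% to 4.03% in the insulin experiment. In epithelial replicate 2 at 5 mM glucose these markers summed to 17675 CPM, against 9047 to 10289 CPM in the other epithelial libraries. That library is part of the epithelial level to which the 5 mM percentages refer. The 20 stromal marker genes in epithelial libraries ranged from 1.65% to 13.1% of the stromal level. The leukocyte list (8 of 18 genes matched) summed to 2.49 to 17.6 CPM per library, and 9 endothelial genes to 5.16 to 83.7 CPM.

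**Figure D1:**
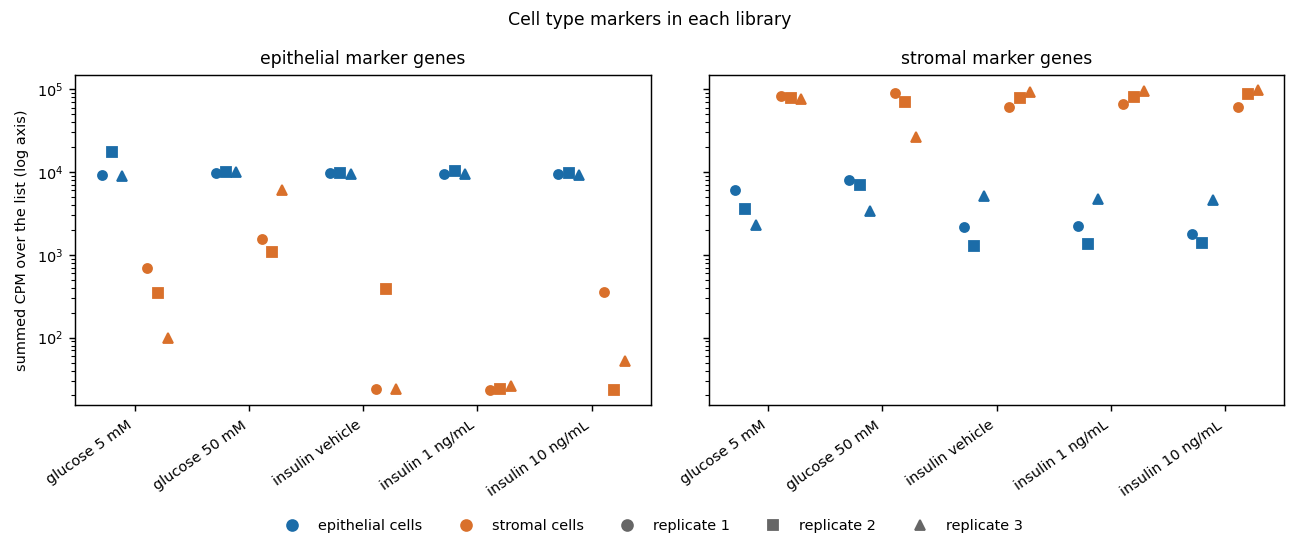
Summed CPM (log axis) of the 22 epithelial and 20 stromal marker genes in each of the 30 libraries, by group, with 1 point per library and the shape giving the replicate. Stromal replicate 3 at 50 mM glucose lies close to the epithelial libraries on the left and below the other stromal libraries on the right.

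Some of the cytokine and chemokine genes differed by cell type in the insulin experiment. IL6 and LIF were higher in epithelial cells and CXCL8 and CSF1 higher in stromal cells, under vehicle and under both insulin doses. Of the 6 genes tested at vehicle, these 4 were called, where 55.2% of all genes were called, 27.8% towards the epithelial and 27.3% towards the stromal side. The same 4 of 6 were called at 1 ng/mL, where 58.9% of all genes were (29.6% and 29.3% in the respective directions), and at 10 ng/mL, where 54.4% were (27.1% and 27.3%). The share of these genes that differed was thus near the background.

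LIF, a cytokine of the IL6 family known for its role at implantation, was found in both cell types and was higher in epithelial cells. Epithelial LIF was 54.7, 70.5 and 65.5 CPM in replicates 1 to 3 at vehicle, and stromal LIF was 6.47, 10.0 and 13.7 CPM. The groups did not overlap in any of the 5 conditions. The fitted difference at vehicle was 6.17-fold (log2 2.63, standard error 0.231, adjusted p = 0.00166), at 1 ng/mL it was 7.71-fold (adjusted p = 0.000116), and at 10 ng/mL 5.62-fold (adjusted p = 0.00204).

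In the glucose experiment the epithelial excess of LIF was 4.84-fold at 5 mM (adjusted p = 0.0184) and 2.16-fold at 50 mM (adjusted p = 0.0466). At 5 mM the levels were 169, 118 and 67.3 CPM in epithelial and 57.9, 19.4 and 6.71 CPM in stromal cells. At 50 mM they were 72.2, 65.4 and 68.0 CPM against 45.3, 22.2 and 23.1 CPM. The 50 mM call was lost in each fit that left out 1 replicate (adjusted p from 0.0723 to 0.0859), and the 5 mM call without replicate 2 (adjusted p = 0.0520) or replicate 3 (adjusted p = 0.0602).

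IL6, which acts through IL6R and the shared subunit IL6ST, was also an epithelial transcript here. At vehicle it lay at 5.33, 35.7 and 17.6 CPM in epithelial and at 1.49, 6.88 and 0.975 CPM in stromal cells. The groups overlapped at vehicle, through epithelial replicate 1 and stromal replicate 2, but epithelial exceeded stromal in each of the 3 replicate pairs. The difference was 6.08-fold (log2 2.60, standard error 0.404, adjusted p = 0.00617). Stromal replicate 2 at vehicle is also the vehicle library with the most epithelial marker signal, 4.03%. Without replicate 2 the log2 fold change of IL6 was 2.89 (adjusted p = 0.0156).

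At 1 ng/mL insulin the epithelial excess of IL6 was 13.7-fold (adjusted p = 0.000395) and at 10 ng/mL 6.91-fold (adjusted p = 0.0122), with no overlap at either dose, and the 10 ng/mL call was lost without replicate 2 (adjusted p = 0.0616) or replicate 3 (adjusted p = 0.0535). At 5 mM glucose it was 6.76-fold (log2 2.76, standard error 0.706, adjusted p = 0.0409), and at 50 mM the log2 value was 2.25 (standard error 0.614, adjusted p = 0.0607), which missed the threshold. The groups overlapped at both glucose concentrations. At 5 mM stromal replicate 1 (117 CPM) passed epithelial replicates 2 and 3 (45.1 and 86.0 CPM), and at 50 mM stromal replicate 3 passed epithelial replicate 2 (46.4 CPM). In stromal replicate 3 at 50 mM, the library with the large epithelial marker signal, IL6 was 58.8 CPM, against 15.1 and 5.32 CPM in the other 2 stromal libraries. Without that replicate, the log2 fold change at 50 mM was 3.13 (adjusted p = 0.00315).

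CXCL8, the neutrophil attractant interleukin-8, was a stromal transcript. At vehicle it lay at 3.37, 3.51 and 12.8 CPM in epithelial and at 70.6, 188 and 89.8 CPM in stromal cells. Epithelial replicate 3 was the highest of its group but stayed far below every stromal library. The stromal excess was 19.6-fold (log2 -4.29 for epithelial over stromal, standard error 0.593, adjusted p = 0.00449), with 22.1-fold at 1 ng/mL (adjusted p = 0.000753) and 17.5-fold at 10 ng/mL (adjusted p = 0.00396).

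In the glucose experiment the stromal excess of CXCL8 was smaller. At 50 mM it was 4.45-fold (adjusted p = 0.00511), and at 5 mM the log2 value of -2.46 (standard error 0.713) missed the threshold with adjusted p = 0.0593. Epithelial CXCL8 in replicate 1 at 5 mM was 162 CPM and stromal CXCL8 there 385 CPM, the highest values of each cell type over the 30 libraries.

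CSF1 was found in both cell types and was higher in stromal cells. At vehicle it lay at 25.0, 21.2 and 38.4 CPM in epithelial and at 303, 247 and 167 CPM in stromal cells, an 8.98-fold difference (log2 -3.17, standard error 0.321, adjusted p = 0.00220). At 1 ng/mL it was 8.32-fold (adjusted p = 0.000474) and at 10 ng/mL 9.17-fold (adjusted p = 0.00354), without overlap between the cell types. With glucose it was 2.90-fold at 5 mM (adjusted p = 0.0266), where epithelial replicate 2 (90.5 CPM) passed the stromal libraries of replicates 1 and 3 (86.1 and 89.9 CPM), and 3.03-fold at 50 mM (adjusted p = 0.0354). Without replicate 3 the 5 mM value of CSF1 was log2 -1.28 and not called (adjusted p = 0.273).

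**Figure D2:**
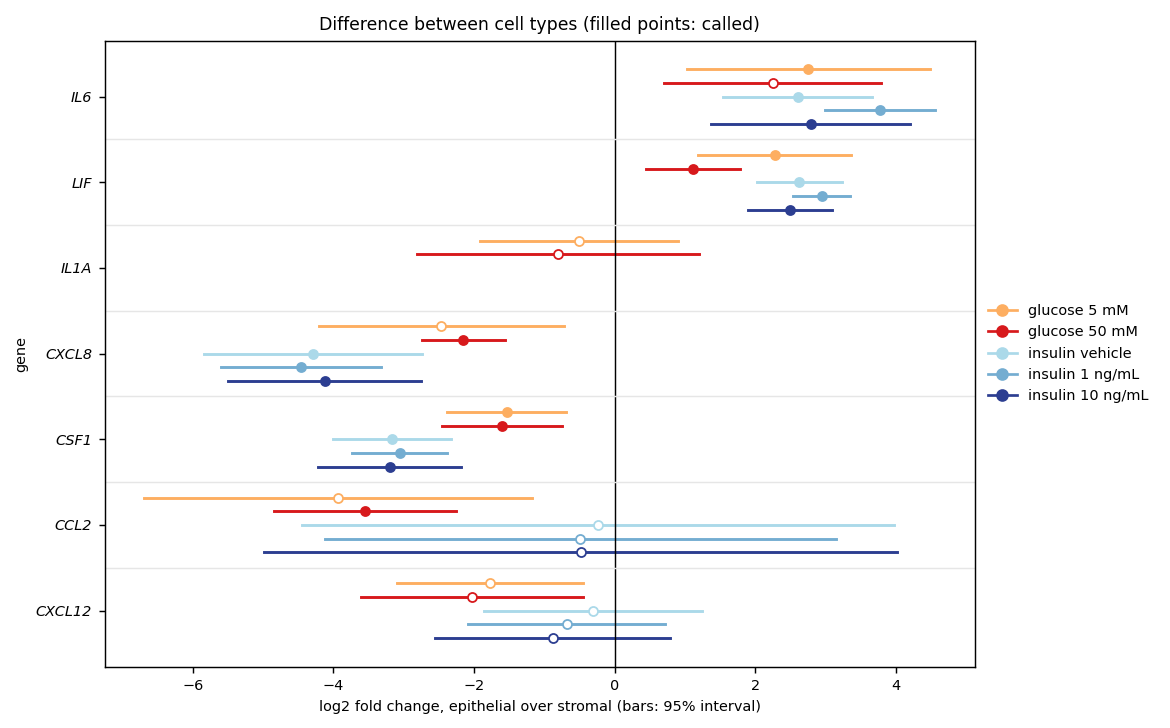
Log2 fold change of epithelial over stromal cells (horizontal axis) with its 95% interval for each gene tested (rows), under the 5 conditions (colours); filled points were called, open points were not. IL6 and LIF lie to the right of 0 and CXCL8 and CSF1 to the left under all 5 conditions, while CCL2 and CXCL12 have intervals across 0 in the insulin experiment.

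In the glucose experiment as a whole, 3 of 7 genes tested were called between cell types at 5 mM (LIF, IL6 and CSF1, where 21.1% of all genes were called, 10.5% towards the epithelial and 10.6% towards the stromal side) and 4 of 7 at 50 mM (LIF, CXCL8, CCL2 and CSF1, where 17.3% were called, 6.39% and 10.9% in the respective directions). CCL2, the monocyte attractant, was 10.8, 6.29 and 1.95 CPM in stromal cells at 5 mM and 4.63, 6.55 and 1.04 CPM at 50 mM. In epithelial cells it was 3.53, 0 and 0.0685 CPM at 5 mM and 0.428, 0.841 and 0 CPM at 50 mM. The stromal excess of CCL2 was 11.7-fold at 50 mM (log2 -3.55, standard error 0.516, adjusted p = 0.0126), where the groups did not overlap, and at 5 mM the log2 value was -3.93 (standard error 1.13, adjusted p = 0.0579). These calls depended on the block: without it, none of the 7 genes was called at either glucose concentration. Without replicate 1, none was called at 50 mM, as was no other gene, and 6 members were called at 5 mM.

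CCL2 behaved otherwise in the insulin experiment, where replicate 3 differed from the others. Epithelial CCL2 was 0.470, 0.207 and 6.85 CPM at vehicle, 0.0994, 0.0878 and 6.66 CPM at 1 ng/mL and 0.223, 0 and 6.40 CPM at 10 ng/mL. Stromal CCL2 was 1.84, 2.90 and 0.108 CPM, then 2.13, 1.95 and 0.646 CPM, then 1.66, 2.37 and 0.384 CPM. In replicates 1 and 2 the stromal library was thus the higher of each pair, and in replicate 3 the epithelial library was, at all 3 doses.

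The stromal marker genes were also highest in epithelial replicate 3, at 6.62%, 5.90% and 5.62% of the stromal level at vehicle, 1 ng/mL and 10 ng/mL, against 1.65% to 2.78% in replicates 1 and 2. Their part in the CCL2 level was not tested. The fitted cell-type difference of CCL2 was log2 -0.24 at vehicle (standard error 1.61), -0.49 at 1 ng/mL and -0.48 at 10 ng/mL, with adjusted p from 0.791 to 0.909, and without replicate 3 it was -2.68, -4.36 and -4.08, with adjusted p of 0.0381, 0.00679 and 0.0510.

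CXCL12, the ligand of CXCR4 and of the scavenger receptor ACKR3, varied with the replicate in the insulin experiment. In stromal cells of the insulin experiment it was 18.0, 13.6 and 5.63 CPM at vehicle, with replicate 3 lowest, and in epithelial cells 4.31, 16.1 and 11.9 CPM, with replicate 1 lowest. The replicate within cell type held 86.1% of the variance of CXCL12 (log2 scale) in the insulin experiment and the cell type 10.5%, while in the glucose experiment the replicate held 44.3% and the cell type 48.7%. For LIF and CSF1 the cell type held 94.3% and 94.6% in the insulin experiment, against a median of 70.6% over genes with a mean of at least 1 CPM. The fitted cell-type difference of CXCL12 was log2 -1.78 at 5 mM (adjusted p = 0.0693), -2.03 at 50 mM (adjusted p = 0.0803) and -0.88 to -0.31 in the insulin experiment, and it was not called. Without replicate 3, whose stromal library at 50 mM carried the epithelial markers, the 50 mM value of CXCL12 was -2.83 and called (adjusted p = 0.00477).

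The remaining genes were near the limit of detection in most libraries. A count of 0 allows up to 3 counts, or 0.180 to 0.222 CPM in an epithelial glucose library, for counting error only. IL1B, the secreted interleukin-1 beta, had 34 counts in epithelial and 21 in stromal replicate 1 at 5 mM glucose, 3 and 1 in stromal replicates 1 and 3 at 50 mM, and none in the other 26 libraries. CCL20, which attracts cells that carry CCR6, had 31 counts in epithelial and 13 in stromal replicate 1 at 5 mM, at most 7 in the other glucose libraries, and none in the 18 insulin libraries. Differences in these genes between insulin doses were not detectable at this depth.

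CXCL10, an interferon-induced attractant of T cells, was found mainly in stromal cells of the glucose experiment. It had 1, 79 and 38 counts in stromal replicates 1 to 3 at 5 mM and 4, 110 and 5 at 50 mM. The only epithelial library with a count was replicate 1 at 5 mM, with 3. In the insulin experiment, stromal replicate 1 held 8, 4 and 10 counts at vehicle, 1 ng/mL and 10 ng/mL, and the other 15 libraries held none. The 20 genes of its interferon axis were also compared. At vehicle, 12 of 18 tested were called higher in epithelial cells and 1 lower, against 27.8% and 27.3% of all genes (median log2 0.87 over the list and 0.00 over all genes), and at 5 mM glucose 7 of 18 were called higher and 0 lower, against 10.5% and 10.6% of all genes. At 50 mM edgeR called 0 of 18, against 6.39% and 10.9% of all genes, and 3 had an unadjusted p under 0.05. In that comparison 3 of 22 epithelial markers were called higher in epithelial cells, against 20 of 22 at 5 mM. Stromal replicate 3 at 50 mM carried the large epithelial marker signal, and its part in these counts was not tested. RSAD2, an antiviral enzyme, lay between 16.1 and 47.0 CPM in the epithelial vehicle libraries, and the stromal ones held at most 0.181 CPM.

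**Figure D3:**
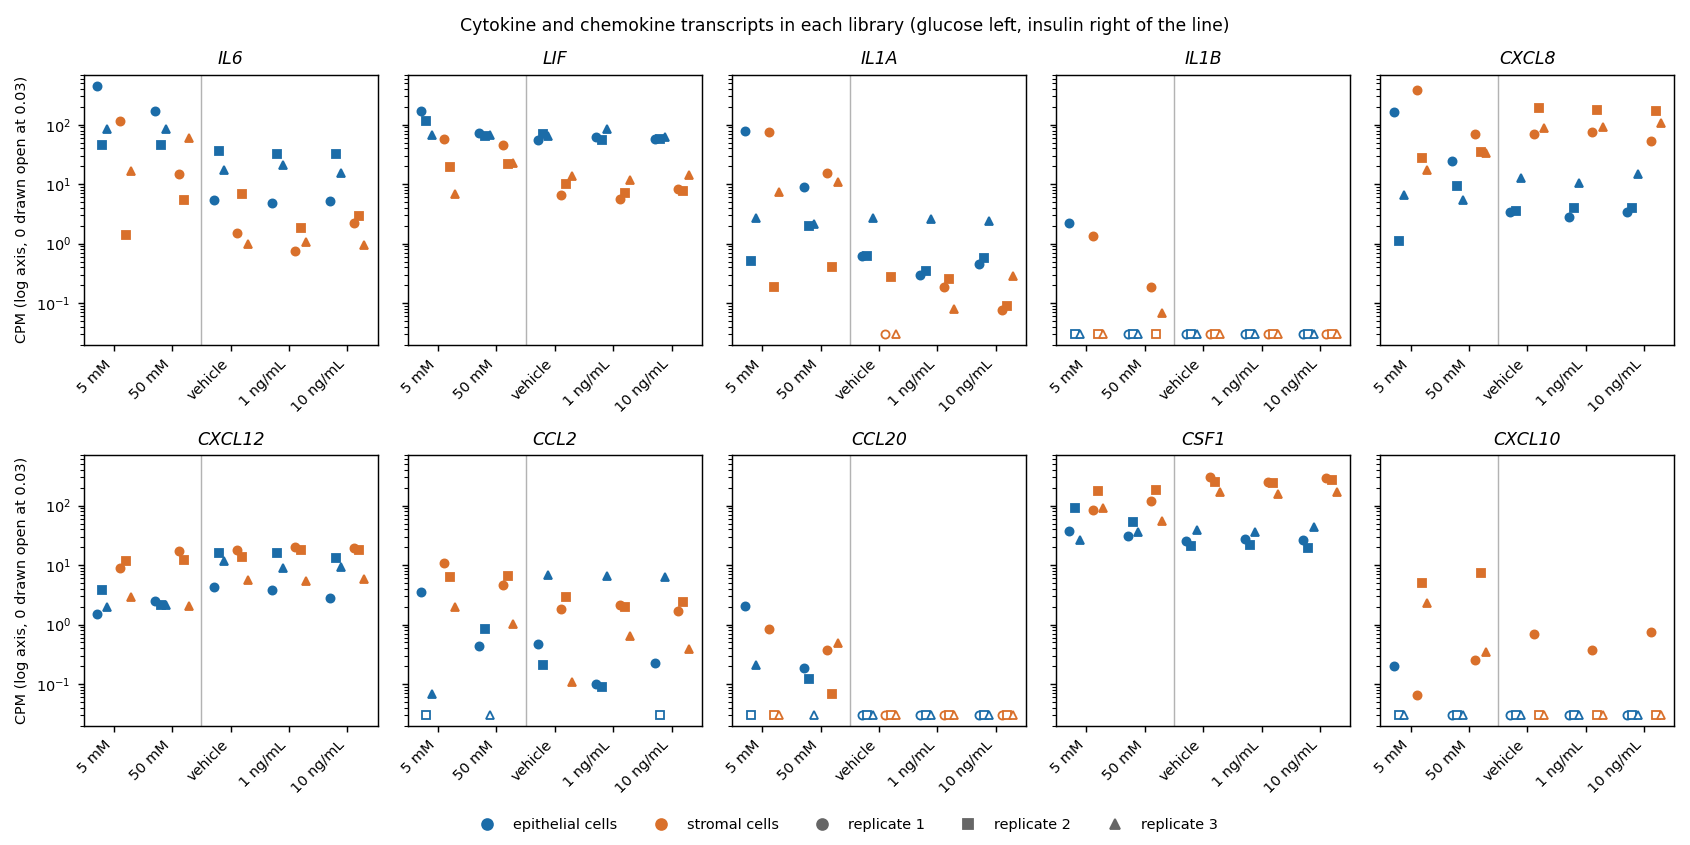
CPM (log axis, libraries at 0 drawn as open points at 0.03) of each of the 10 genes in all 30 libraries, by group (horizontal axis), with colour for the cell type and shape for the replicate. Within a condition, LIF separates by colour throughout and CSF1 does so except at 5 mM glucose. IL1B and CCL20 are at 0 throughout the insulin experiment. Replicate 1 (circles) at 5 mM glucose is the highest point of its cell type for IL6, IL1A, IL1B and CXCL8.

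Among the receptors and related genes, calls were found on both sides. At vehicle, 4 of 16 receptor and signalling genes were called for the epithelial side and 5 for the stromal side, shares near the 27.8% and 27.3% of all genes. LIFR, which binds LIF, was 18.1 ± 2.62 CPM (SD, n = 3) in stromal and 4.70 ± 3.36 CPM in epithelial cells at vehicle (log2 -2.18, standard error 0.340, adjusted p = 0.00626). CXCR4, the signalling receptor of CXCL12, was 61.6 ± 47.1 CPM in epithelial and 0.820 ± 0.330 CPM in stromal cells (log2 5.90, standard error 0.493, adjusted p = 0.00153).

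CSF1R, the receptor of CSF1 and a macrophage marker, was low in both cell types, at 2.30 ± 1.31 CPM in stromal and 0.120 ± 0.145 CPM in epithelial cells at vehicle (log2 -4.26, adjusted p = 0.00426). IL1R1, which transmits the signal of IL1A and IL1B, was 20.4 ± 4.81 CPM in stromal and 4.79 ± 2.08 CPM in epithelial cells (log2 -2.19, adjusted p = 0.00735). IL1RN, the antagonist of that receptor, lay the other way, with 30.5 ± 5.25 CPM in epithelial and 0.607 ± 0.807 CPM in stromal cells (log2 5.56, adjusted p = 0.00303). ACKR3, which takes up CXCL12 without the usual signal, was 367.0 ± 14.2 CPM in stromal and 27.4 ± 16.8 CPM in epithelial cells (log2 -4.04, adjusted p = 0.00426).

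Of the inhibitors and decoys as a list, 3 of 9 tested were called for the epithelial and 1 for the stromal side at vehicle, where 27.8% and 27.3% of all genes were, as for the lists that follow. Of 7 other chemokines tested, 5 were called higher in stromal cells and 1 in epithelial cells (median log2 -2.27 over the list). CXCL5, which shares a receptor with CXCL8, was 237.0 ± 12.8 CPM in stromal and 4.37 ± 3.45 CPM in epithelial cells (log2 -6.03, adjusted p = 0.00111). Of 20 NF-kB pathway genes tested, 10 were called higher in epithelial and 3 in stromal cells, and the largest difference was that of REL, an NF-kB subunit (log2 5.89, adjusted p = 0.00493). Of 8 other cytokines tested, 4 were higher in epithelial and 3 in stromal cells, with CSF2, the granulocyte-macrophage factor, at log2 4.40 (adjusted p = 0.0106) and IL18 at -4.08 (adjusted p = 0.00224).

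Glucose gave no call. None of the 6 genes tested in epithelial cells and none of the 8 in stromal cells was called between 50 mM and 5 mM by edgeR, where 0% of all 13713 and 13644 genes were called. None had an unadjusted p under 0.05 (1.55% and 4.87% of all genes did), and DESeq2 also called none of them. The log2 fold changes ran from -0.82 to -0.04 in epithelial and from -0.73 to 0.44 in stromal cells, with standard errors of up to 1.13 and 1.25, so that changes of several-fold in either direction lay within the intervals of the most variable genes.

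The spread came from single replicates, of which replicate 1 at 5 mM stood out. Epithelial IL6 was 455, 45.1 and 86.0 CPM at 5 mM and 169, 46.4 and 85.2 CPM at 50 mM. Replicates 2 and 3 thus hardly differed between the concentrations (log2 ratios 0.04 and -0.01), while in replicate 1 the level at 50 mM was 2.69-fold lower. The fitted log2 fold change was -0.46 (standard error 0.345, adjusted p = 0.804).

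Stromal IL6 was 117, 1.38 and 17.0 CPM at 5 mM and 15.1, 5.32 and 58.8 CPM at 50 mM. Its log2 ratio was -2.95 in replicate 1 but 1.92 and 1.79 in replicates 2 and 3, and the groups overlapped. The fit gave 0.28 (standard error 1.25, adjusted p = 0.939). The direction of stromal IL6 turned with single libraries: it was 1.73 without replicate 1 and -1.33 without replicate 3, whose 50 mM library held the large epithelial marker signal.

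IL1A, the cell-associated interleukin-1 alpha, differed mostly between replicates in the glucose experiment. In epithelial cells it was 77.8, 0.519 and 2.74 CPM at 5 mM and 8.93, 1.98 and 2.11 CPM at 50 mM, and in stromal cells 76.2, 0.189 and 7.38 CPM at 5 mM and 15.2, 0.409 and 10.8 CPM at 50 mM. The order of the replicates was the same in both cell types at 5 mM, with replicate 1 far above the others and replicate 2 lowest. The replicate within cell type held 87.7% of the variance of IL1A in the glucose experiment, against a median of 36.6% over genes with a mean of at least 1 CPM, and the treatment held 0.662%.

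CXCL8 was also highest in replicate 1. In epithelial cells it was 162, 1.11 and 6.65 CPM at 5 mM and 24.4, 9.37 and 5.34 CPM at 50 mM, with log2 ratios of -2.73, 3.03 and -0.31. In stromal cells it was 385, 27.7 and 17.0 CPM at 5 mM and 69.9, 34.7 and 33.5 CPM at 50 mM, with log2 ratios of -2.46, 0.33 and 0.98. The pairs thus disagreed in sign in both cell types, and the fitted log2 fold changes were -0.23 (standard error 1.13) and -0.41 (standard error 0.751).

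Without replicate 2, IL1A and CXCL8 were called lower at 50 mM in epithelial cells, with log2 fold changes of -2.54 (adjusted p = 0.00134) and -2.0 (adjusted p = 0.00548), in a fit that called 221 of all genes where the fit with all replicates called 0. Without replicate 1, both turned, to 0.62 and 1.25. Epithelial replicate 2 was a pair in which much of the transcriptome differed: 25.6% of 13431 genes were at least 2-fold higher and 14.5% at least 2-fold lower at 50 mM. In epithelial replicate 1 these shares were 1.96% and 1.76%, and in replicate 3 they were 1.22% and 0.916%.

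In replicate 1, several of these genes were among the few that differed 2-fold. In epithelial cells, IL6, LIF, IL1A, CXCL8 and CCL2 were at least 2-fold lower at 50 mM. So were IL1B, with 34 counts at 5 mM and 0 at 50 mM, and CCL20, with 31 and 3. CXCL10, with 3 counts against 0, lay within the limit that a count of 0 allows. In stromal cells, IL6, IL1A, CXCL8 and CCL2 were at least 2-fold lower, as 1.16% of all genes were. IL1B (21 and 3 counts) and CCL20 (13 and 6 counts) were also at least 2-fold lower there. CCL2 had log2 ratios of -2.96 and -1.22 in these pairs. LIF, at -1.23 in epithelial cells, had -0.36 in stromal cells. CSF1 and CXCL12 did not share the pattern, with log2 ratios of -0.24 and 0.70 in epithelial and 0.49 and 0.94 in stromal cells.

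The neutrophil-attracting chemokines outside the 10 genes lay the same way in replicate 1, and the genes named here were chosen after their values were seen. CXCL5 was 296 CPM in epithelial replicate 1 at 5 mM and 37.9 CPM at 50 mM, and 1740 and 215 CPM in stromal cells. CXCL2 was 81.9 and 7.77 CPM in epithelial and 186 and 31.4 CPM in stromal cells. GRO1, also known as CXCL1, was 113 and 14.2 CPM in epithelial and 157 and 37.0 CPM in stromal cells.

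Of the 7 other chemokines with a mean of at least 1 CPM, 6 were at least 2-fold lower at 50 mM in epithelial replicate 1 (median log2 ratio -2.97, against -0.05 over all genes) and 4 in stromal replicate 1 (median -1.72, against -0.03). In epithelial replicate 2, 5 of these 7 were at least 2-fold higher at 50 mM (median 2.68). Of 22 NF-kB pathway genes, 20 were lower at 50 mM in epithelial and 18 in stromal replicate 1 (medians -0.53 and -0.40, against -0.05 and -0.03 over all genes). These counts describe replicate 1 alone. The fits with all replicates gave list medians of -0.20 in epithelial and -0.08 in stromal cells and called 0 of these genes. Of this list, the inhibitor NFKBIA, which NF-kB itself induces, was 133 and 59.7 CPM in epithelial replicate 1 at 5 mM and 50 mM, and TNFAIP3, a further feedback inhibitor, 389 and 158 CPM.

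The leukocyte list summed to 8.52 CPM in epithelial replicate 1 at 5 mM, within the 4.67 to 10.5 CPM of the other epithelial glucose libraries, and to 13.1 CPM in stromal replicate 1, where stromal replicate 3 at 5 mM held 17.6 CPM. The genes of this list differed in level. CD14 reached 235 counts in a stromal and 116 in an epithelial glucose library, CD163 41 and 8, CSF1R 39 and 5, and AIF1 7 and 35. FCER1G reached 5 and 7, CD79B 4 and 4, CD3D 3 and 2, and ITGB2, an integrin subunit of all leukocytes, 1 and 4.

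**Figure D4:**
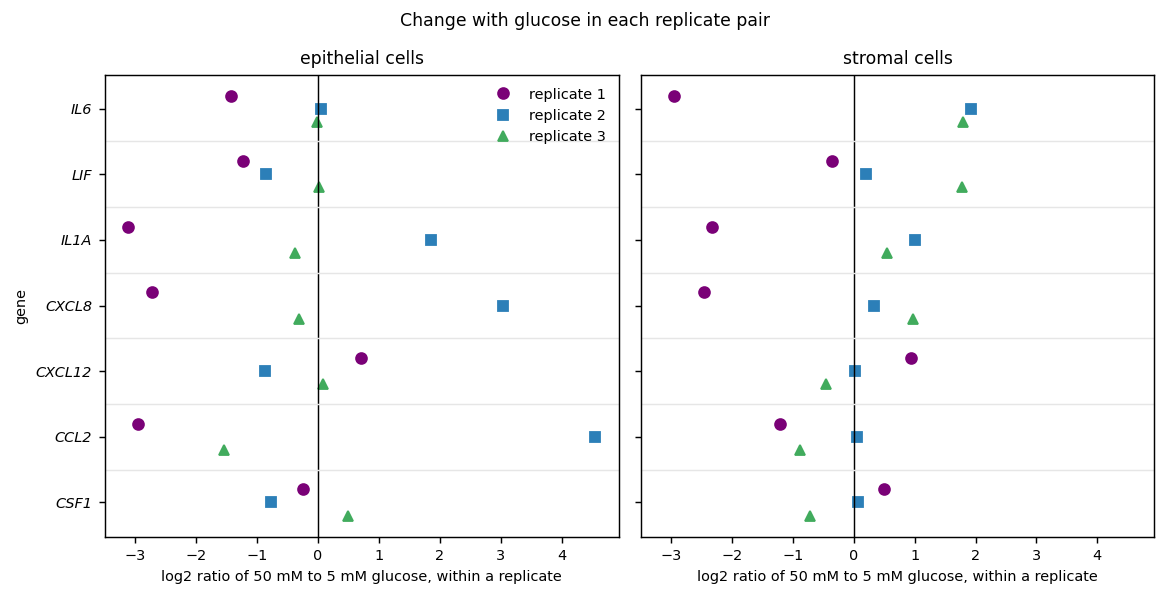
Log2 ratio of 50 mM to 5 mM glucose (horizontal axis) within each replicate pair, for 7 genes (rows) in epithelial and stromal cells; shape and colour give the replicate. Replicate 1 lies left of 0 for IL6, LIF, IL1A, CXCL8 and CCL2 in both cell types. In epithelial cells, replicates 2 and 3 lie on opposite sides of 0 for each of these genes. In stromal cells, replicates 2 and 3 both lie right of 0 for IL6, LIF, IL1A and CXCL8, and on opposite sides for CCL2.

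None of the remaining differences with glucose was called. Epithelial LIF had the smallest unadjusted p in that cell type, 0.0660 (log2 -0.69, standard error 0.303, adjusted p = 0.804), with log2 ratios of -1.23, -0.85 and 0.02. Stromal CCL2 had the smallest in stromal cells, 0.0737 (log2 -0.73, standard error 0.310, adjusted p = 0.696), with log2 ratios of -1.22, 0.06 and -0.89. Stromal CXCL10 gave log2 -0.44 (standard error 0.908), with ratios of 1.53, 0.59 and -2.63. CSF1 gave -0.17 and -0.12 and CXCL12 -0.04 and 0.15 in epithelial and stromal cells. The marker genes also lay to one side with glucose: 19 of 19 stromal markers tested were higher at 50 mM in epithelial cells (median log2 0.71), and 21 of 21 epithelial markers in stromal cells (median 4.42). Their part in the values was not tested.

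No receptor, inhibitor, other cytokine, other chemokine, NF-kB or interferon gene of the lists was called with glucose in either cell type. In epithelial cells the median log2 fold change was 0.23 over 15 receptor genes, 0.03 over 8 other chemokines and -0.20 over 21 NF-kB genes, against 0.01 over all genes, and in stromal cells it was 0.01, -0.32 and -0.08, against -0.03. The difference of the glucose effect between cell types was called for none of 8 members (0% of all genes, none with an unadjusted p under 0.05).

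With insulin, no member was called at either dose. Over the 6 comparisons of insulin doses, 33 tests were made on 5 or 6 of the 10 genes each, with a smallest adjusted p of 0.513. Of all genes, 0%, 0.124% and 0% were called in epithelial cells (1 ng/mL against vehicle, 10 ng/mL against vehicle, 10 against 1 ng/mL), and 0.0157%, 0% and 0.0313% in stromal cells. Where any gene was called, the shares higher and lower at the larger dose were 0.07% and 0.0545% for epithelial 10 ng/mL against vehicle, 0.0157% and 0% for stromal 1 ng/mL against vehicle, and 0.0235% and 0.00783% for stromal 10 against 1 ng/mL. DESeq2 called none of the 10 genes either. An unadjusted p under 0.05 was found in 4 of the 33 tests, for IL6, CXCL12, LIF and CSF1, and the other 29 log2 fold changes lay between -0.36 and 0.70. Of the related genes in the lists, RSAD2 alone was called, lower at 10 ng/mL than at vehicle in epithelial cells (log2 -0.82, standard error 0.112, adjusted p = 0.000173). Without the block, 0 of all genes were called there.

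Stromal IL6 had the largest fitted difference. It was 1.49, 6.88 and 0.975 CPM at vehicle, 0.741, 1.87 and 1.05 CPM at 1 ng/mL and 2.19, 2.89 and 0.961 CPM at 10 ng/mL. These rest on 8 to 76 reads, and the groups overlapped. The log2 fold change at 1 ng/mL against vehicle was -1.21 (standard error 0.354, unadjusted p = 0.00470, adjusted p = 0.766), lower in 2 of 3 pairs.

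That value rests on replicate 2, where stromal IL6 at vehicle was highest and where the epithelial marker signal went from 4.03% at vehicle to 0.243% at 1 ng/mL; the part of that signal in the IL6 level was not tested. Without replicate 2 the log2 fold change of IL6 was -0.42 (adjusted p = 0.865), and without replicate 3 it was -1.61 and called (adjusted p = 0.0138). Epithelial IL6 was 5.33, 35.7 and 17.6 CPM at vehicle and 4.77, 32.8 and 20.8 CPM at 1 ng/mL, so that the difference of the insulin effect between cell types was log2 1.33 (standard error 0.343, unadjusted p = 0.00141, adjusted p = 0.130). With 1 replicate left out it ran from 0.53 (without replicate 2) to 1.51 (without replicate 3, called with adjusted p = 0.0269). With all replicates it was not called, and of all genes 0.658% were (0.644% positive and 0.0143% negative). In the same test 16 of 22 epithelial marker genes were called positive (median log2 3.66 over the list), and their part in the IL6 value was not tested.

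CXCL12 lay in opposite directions in the cell types. Epithelial CXCL12 was 4.31, 16.1 and 11.9 CPM at vehicle and 2.78, 12.9 and 9.45 CPM at 10 ng/mL, lower in 3 of 3 pairs. Stromal CXCL12 was 18.0, 13.6 and 5.63 CPM at vehicle and 19.4, 17.7 and 5.86 CPM at 10 ng/mL, higher in 3 of 3 pairs. The groups overlapped in both cell types. The epithelial log2 fold change was -0.38 (standard error 0.132, unadjusted p = 0.00744, adjusted p = 0.513) and the stromal 0.20 (standard error 0.108, adjusted p = 0.999). The difference between them was -0.59 (standard error 0.158, unadjusted p = 0.00442, adjusted p = 1.0), where 0% of all genes were called, and at 1 ng/mL it was -0.43 (unadjusted p = 0.0220, adjusted p = 0.564).

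LIF and CSF1 in stromal cells were slightly higher at 10 than at 1 ng/mL in 3 of 3 pairs. Stromal LIF was 5.74, 7.04 and 11.6 CPM at 1 ng/mL and 8.25, 7.72 and 14.3 CPM at 10 ng/mL (log2 0.30, standard error 0.134, unadjusted p = 0.0495). Stromal CSF1 was 251, 245 and 158 CPM against 297, 268 and 170 CPM (log2 0.14, standard error 0.0495, unadjusted p = 0.0170). Both had an adjusted p of 1.0 and overlapping groups, and against vehicle the 10 ng/mL value of LIF was 0.02 and that of CSF1 0.04. The epithelial marker signal in these stromal libraries was 0.238%, 0.243% and 0.270% at 1 ng/mL and 3.77%, 0.243% and 0.545% at 10 ng/mL, and its part in the LIF level was not tested.

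Stromal CXCL8 lay at 54.1 to 188 CPM over the doses. Against vehicle it was log2 0.03 at 1 ng/mL (95% interval -0.10 to 0.16) and -0.08 at 10 ng/mL (-0.32 to 0.17), so larger changes lay outside these intervals. Epithelial IL1A was 0.298 to 2.72 CPM over the 9 epithelial insulin libraries, highest in replicate 3 at every dose (29, 26 and 23 counts), and was removed by the filter on low counts, as it was in stromal cells, where it had at most 3 counts. The level of IL6 also differed between the experiments: at 5 mM glucose it was 45.1 to 455 CPM in epithelial cells of the glucose experiment and 5.33 to 35.7 CPM at vehicle, but the experiments were separate runs of cells and were not compared by a test.

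**Figure D5:**
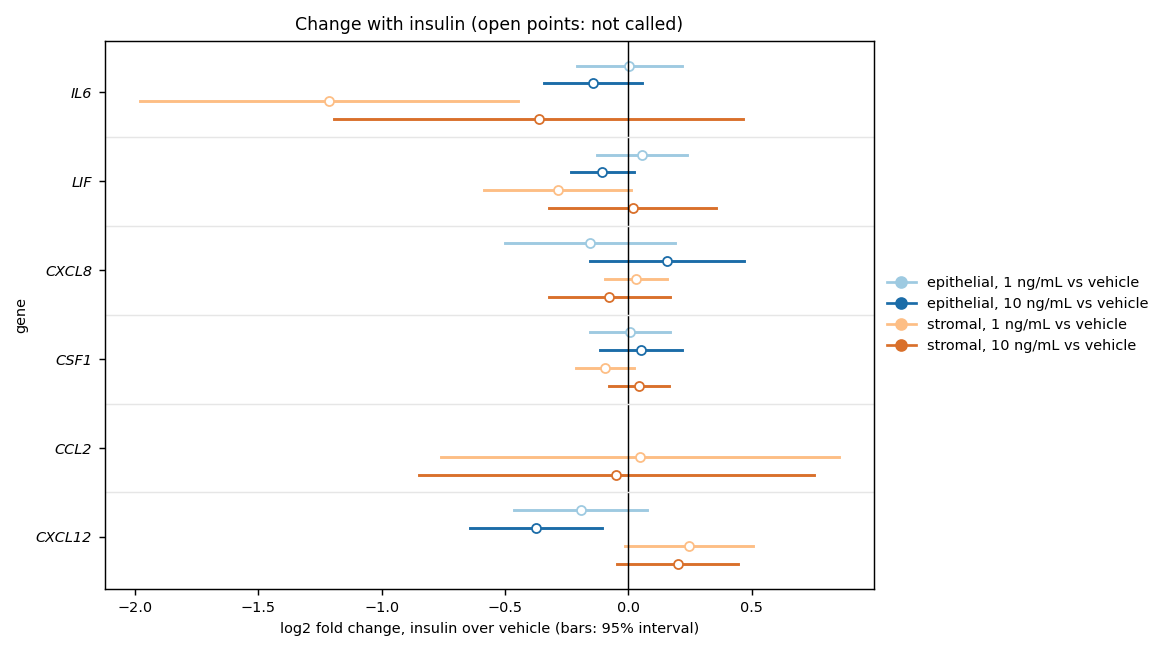
Log2 fold change of insulin over vehicle (horizontal axis) with its 95% interval for the genes tested (rows), at both doses in both cell types (colours); all points are open since none was called. The intervals are widest for IL6 and CCL2 in stromal cells, and those of CXCL12 in epithelial cells at 10 ng/mL and of IL6 in stromal cells at 1 ng/mL lie below 0.

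Genes with patterns most like each member were sought over the 30 libraries, after the mean of each experiment and cell type had been subtracted from log2(CPM + 1), among 12173 genes. IL1A was closest to NFKBIA (Pearson r 0.93), RND1 (0.93) and GRO1 (0.92), and CXCL8 to TRPA1 (0.90), CXCL5 (0.90) and CXCL3 (0.87). IL6 was closest to PTGS1 (0.87), a cyclooxygenase of prostaglandin synthesis, BACE2 (0.86) and ANKRD50 (0.82). LIF was closest to DOT1L (0.84), CCL2 to CLMP (0.84), CXCL12 to ST6GALNAC6 (0.78) and CSF1 to EVC (0.90). The 30 libraries share replicates and experiments, so these values are a description. For CXCL3 the value fell by most among those named for CXCL8 when the 4 glucose libraries of replicate 1 were left out, to 0.69 over 26 libraries, and for IL6 and PTGS1 it was 0.90.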

How the data were processed

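RNA was sequenced by the authors as stranded libraries with 75 bp single-end reads. Per the labels and methods, the authors used Cutadapt and fastq_quality_filter for trimming, Rsubread for alignment (bovine Ensembl release 96) and featureCounts for counting uniquely mapped reads per gene; the deposited counts, not normalized, were used here. Assembly name, tool versions and the strand setting of the counting are not given in the sources used here, so overlapping genes could share reads. The authors' 13 comparison tables hold normalized values, fold changes and p-values, and only their gene names were used (14951 identifiers with a symbol).

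The 10 genes and the lists of related genes were chosen with earlier results of these data known. Counts of 6 libraries per comparison (12 for differences between cell types in an effect) were filtered with filterByExpr, normalized with TMM and tested with edgeR 4.0.16 (R 4.3.3), two-sided, with the replicate number as a block, as the study used a paired design. The study does not say what the pairs were, so pairing epithelial with stromal libraries by number is an assumption. Same-numbered libraries deviated together (every r over 0.1) in 10 of 13 comparisons, the exceptions being stromal 10 ng/mL against vehicle (-0.18 to 0.54), cell types at 5 mM glucose (0.037 to 0.31) and cell types at 10 ng/mL (0.084 to 0.22). For stromal 50 against 5 mM glucose, the r of replicates 1 and 3 (0.27 and 0.14) lay below the highest r of differently numbered libraries (0.35). Log2 ratios and 2-fold shares within pairs used counts plus 0.5, scaled to the total counts of the library. TMM was not applied to them, unlike the fitted values. All 10 genes were eligible to be named in each comparison, but not every fitted value is printed. Of a list, up to 3 called genes with the largest change were eligible. LIFR at vehicle and the chemokine and NF-kB genes shown for glucose replicate 1 were added after their values were seen. No sequences are printed, since none was used here. Alternatives were DESeq2 1.42.0, its size factors, no filter, no block, 1 fit over all libraries, and leaving out each replicate. The code was tested on simulated data.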

Additional observations from a re-analysis of the deposited data

Results flagged for a closer look

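All 10 genes were screened in each comparison of glucose or insulin concentrations. CXCL12 was singled out since every pair of one cell type moved one way and every pair of the other cell type the opposite way. How many genes such a screen would pick by chance was not tested. At 10 ng/mL insulin against vehicle it was lower in 3 of 3 epithelial pairs and higher in 3 of 3 stromal pairs. The difference between the 2 log2 fold changes was -0.59 (standard error 0.158, unadjusted p = 0.00442), and with Benjamini-Hochberg adjustment over all genes in edgeR's quasi-likelihood test it was not called (adjusted p = 1.0). With 1 replicate left out at a time the difference was -0.65 to -0.51. The p-value and this range come from the same pairs by which the gene was picked, so they give no separate support. In the stromal comparison, same-numbered libraries did not deviate together in every replicate (r from -0.18 to 0.54). Stromal markers in the epithelial libraries were 2.78%, 1.65% and 6.62% of the stromal level at vehicle and 2.16%, 1.66% and 5.62% at 10 ng/mL, and their part in the CXCL12 levels was not tested.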

How the results depend on the processing

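The number of members called, over 16 comparisons, stayed within 1.5 times of the value given in 113 of 128 alternatives. The exceptions follow, and their causes were not tested. Between cell types at 5 mM glucose (3 called), no filter gave 5, DESeq2 6, 1 fit over all libraries 5, and leaving out 1 replicate 3 to 6; at 50 mM (4 called), no filter gave 7 and leaving out 1 replicate 0 to 5. One fit over all libraries gave 7 at vehicle, 7 at 1 ng/mL and 7 at 10 ng/mL; it takes a block within each cell type, so its error does not hold the spread of the cell-type difference between replicates. Leaving out 1 replicate gave 0 to 2 members for glucose in epithelial cells, 0 to 1 for 1 ng/mL insulin in stromal cells and 0 to 1 for the cell-type difference of that effect, where no filter gave 1 (IL6).

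Without the replicate block, 0 members were called between cell types at 5 mM and 0 at 50 mM, stromal IL6 with glucose turned to -0.92 and stromal CXCL10 to 0.067, and CCL2 between cell types turned to 0.45 at vehicle, 0.38 at 1 ng/mL and 0.46 at 10 ng/mL; at vehicle IL6 was no longer called (adjusted p = 0.0510), and the block changed no other call of a member.

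No called member changed direction. Over the fits that left out 1 replicate, uncalled log2 fold changes crossed 0. For glucose in epithelial cells these were IL1A (-2.54 to 0.62), CXCL8 (-2.0 to 1.25), CXCL12 (-0.44 to 0.43) and CSF1 (-0.52 to 0.16). In stromal cells they were IL6 (-1.33 to 1.73), LIF (-0.12 to 0.86), IL1A (-2.08 to 0.55), CXCL8 (-1.16 to 0.53), CXCL12 (-0.31 to 0.45), CSF1 (-0.44 to 0.25) and CXCL10 (-0.74 to 0.60). Between cell types they were IL1A at 5 mM (-0.88 to 0.28), CXCL12 at vehicle (-0.85 to 0.48) and 1 ng/mL (-1.24 to 0.10), and CCL2 at vehicle (-2.68 to 1.21), 1 ng/mL (-4.36 to 0.65) and 10 ng/mL (-4.08 to 0.94). Counts over all genes moved too: with glucose in stromal cells DESeq2 called 174 (edgeR 0), for the cell-type difference of the glucose effect 241 (edgeR 0), and between cell types at 50 mM the fit without the block called 1088 and that without replicate 1 called 0 (2397 in the blocked fit). Low counts limit IL1B, CCL20, CXCL10 and insulin IL1A, which the filter removed from most tests.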
